A study of Caenorhabditis elegans with 2 samples.

Results

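The genes described here encode the contractile filaments, attachment structures and membrane machinery of muscle in the nematode Caenorhabditis elegans. They are 36 genes of a list chosen by name, out of 19973 protein-coding genes on the 6 nuclear chromosomes of the WBcel235 annotation, and all 36 were found there under their symbols. Binding of the zinc finger protein SOMI-1 near them was read from chromatin immunoprecipitation followed by sequencing (ChIP-seq). The animals were of strain OP752, which carries the mutation unc-119(tm4063) and the transgene wgIs752, made of somi-1::TY1::EGFP::3xFLAG together with a rescuing unc-119(+). They were young adults of mixed sex at 65.5 hours, grown from larvae arrested by starvation, and an antibody against GFP was used on sonicated chromatin of 200 to 800 bp. Both biological replicates (2 in all) belong to a single group, share the genotype, stage and transgene, and have no comparison group. Whole animals were used, so the lists do not say in which tissue the fusion protein sat at a given place, and no source used here names the promoter that drives the fusion or the number of copies of the transgene.

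The body wall muscle of the worm is striated in an oblique pattern. Its thick filaments are built of myosin and paramyosin and are held at M-lines, and its thin filaments carry actin, tropomyosin and troponin and are anchored at dense bodies. Dense bodies and M-lines sit on integrin in the muscle membrane, which grips the perlecan UNC-52 in the basement membrane. The pharynx, a separate muscular pump, uses its own myosin heavy chains.

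Of 36 members, 3 had a thresholded summit in the promoter window, and they were the troponin T genes mup-2 and tnt-2 and the attachment gene unc-112. Another 2 thresholded summits lay inside the giant kinase gene unc-22, so 4 members were reached in all. The promoter window runs from 1000 bp upstream to 200 bp downstream of any annotated transcript 5′ end, and the thresholded list holds the 1667 peaks that passed the authors' cutoff on the irreproducible discovery rate (IDR). The share of 3 in 36 (8.33%, Wilson 95% interval 2.87 to 21.8) stood beside 4.34% of all protein-coding genes, and that background lies inside the interval. For the gene body the count was 1 of 36 (2.78%, 0.492 to 14.2) beside 2.33% of all genes. For the window or the body it was 4 of 36 (11.1%, 4.41 to 25.3) beside 5.67%. The intervals cover counting error only and no test of the list was made.

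In the weaker peaks, most members carried a summit. The list called on both replicates together, here the joint list, held 26266 peaks, and 28 of 36 members had one of its summits in their window (77.8%, 61.9 to 88.3), beside 35.0% of all genes. Replicate 1, with 29600 peaks of its own, gave 28 of 36 beside 37.9% of all genes, and replicate 2, with 26067 peaks, gave 30 of 36 (83.3%, 68.1 to 92.1) beside 34.9%. Both replicates' own lists put a summit in the window of 26 members (72.2%, 56.0 to 84.2), beside 22.8% of all genes. A joint summit that also lay inside a peak of each replicate was found in the windows of 20 members, beside 18.9% of all genes, a setting added after the data were seen. For the window or the body together the joint list reached 34 members (94.4%, 81.9 to 98.5), beside 55.4% of all genes. Most of these peaks ranked below the thresholded ones, as cuts by rank chosen after the data were seen show. A window summit among the strongest 10% of the joint list was present for 5 members, beside 6.43% of all genes. Among the strongest 25% it was present for 17 members (47.2%) beside 12.9%, and among the strongest 50% for 21 beside 21.3%. Peaks of other factors and expression levels were not analysed, so it was not tested whether these weaker peaks are specific to SOMI-1 or go with how strongly a gene is expressed.

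**Figure D1:**
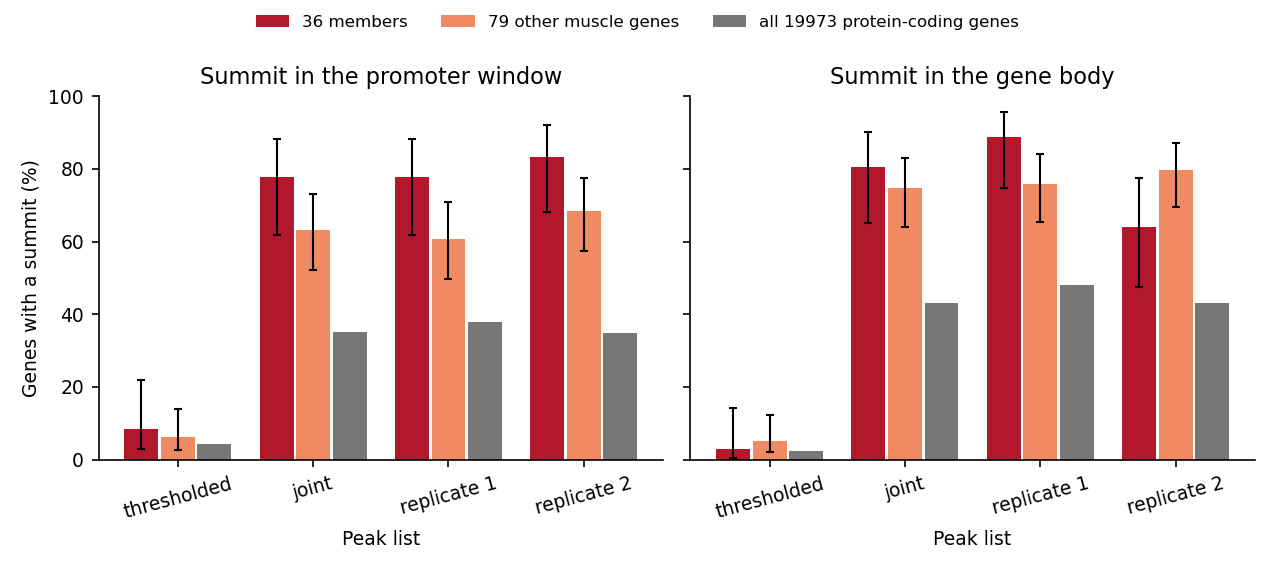
Share of genes with a summit in the promoter window (left) and in the gene body (right) in each peak list, in percent. Bars are the 36 members, 79 other muscle genes and all 19973 protein-coding genes, and error bars are Wilson 95% intervals; in the joint list the window shares are 77.8%, 63.3% and 35.0%.

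Troponin T genes held the strongest promoter peaks of the list. Troponin T ties the calcium-sensing troponin complex to tropomyosin on the thin filament. At mup-2 (WBGene00003495, minus strand of chromosome X) the peak chrX:6410356-6410775 had a signal of 114 in the joint list, where signal is the authors' value per peak without a stated unit, and ranked 1004 of 26266. The strongest peak of replicate 1 over that summit had a signal of 73.3 and that of replicate 2 a signal of 47.4. Its summit lay 339 bp upstream of the gene's only annotated 5′ end, inside the non-coding RNA gene T22E5.10. At tnt-2 (WBGene00006587, also on the minus strand of X) the peak chrX:8723841-8724260 had a signal of 106 at rank 1228, with 38.6 in replicate 1 and 65.1 in replicate 2, and its summit lay 501 bp upstream. Replicate 1 was the higher one at mup-2 and replicate 2 at tnt-2.

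The attachment gene unc-112 (WBGene00006836, minus strand of V) encodes the worm's kindlin, a partner of integrin at dense bodies and M-lines. Its peak chrV:14696840-14697259 had a signal of 104.6 at rank 1258, with 43.4 in replicate 1 and 62.0 in replicate 2. It was centred 396 bp upstream, and a second joint summit followed at 601 bp with a signal of 64.9. In all 3 promoters the thresholded summit lay in the window of no other protein-coding gene. All 3 ranked in the weaker part of the thresholded list, between 1004 and 1258 of 1667, whose signals run from 91.0 to 841.

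The sequences under these summits are shown because they are the only stretches in members' promoters that passed the authors' threshold. Each run is the plus strand of ce11 from 50 bases before to 50 bases after the summit. Capitals mark GAGAGA or its reverse complement TCTCTC, a word picked out after these sequences had been read.
mup-2, chrX:6410516-6410616: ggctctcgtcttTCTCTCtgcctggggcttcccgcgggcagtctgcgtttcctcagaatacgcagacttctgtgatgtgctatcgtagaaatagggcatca
tnt-2, chrX:8724001-8724101: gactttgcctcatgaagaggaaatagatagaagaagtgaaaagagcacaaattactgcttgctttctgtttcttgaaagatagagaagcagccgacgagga
unc-112, chrV:14697000-14697100: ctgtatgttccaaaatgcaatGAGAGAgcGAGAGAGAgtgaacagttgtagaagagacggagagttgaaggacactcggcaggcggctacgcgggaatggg

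The mup-2 and unc-112 runs hold the word and the tnt-2 run does not. Across the 46 joint summits in members' windows, 12 held GAGAGA on either strand within 50 bases (26.1%, 15.6 to 40.3). The share was 12.9% in a reference set of 8376 joint summits and 10.5% of all joint peaks. The reference set holds the 8251 joint summits in any gene's window and members' body summits outside every window. In the thresholded list the word lay at 25.5% of all peaks, so it was more frequent among strong peaks in general. Those 12 summits lay at 11 members, namely unc-15, unc-27, tnt-2, unc-89, mup-2, pat-10, dim-1, unc-60, unc-112, unc-98 and clik-1. At tnt-2 the word lay under the weaker summit, 710 bp upstream. Since the word was chosen from members' own sequences, the count is a description.

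Other words were less frequent. GACGCA was searched because it had stood out in an earlier look at these peaks, CAGCTG as an E box of the kind bound by MyoD-family factors in vertebrates, and CACGTG as the E box of Myc and its relatives. Both strands were read, and none of these words contains another. GACGCA lay at 4 of the 46 window summits (8.70%, 3.43 to 20.3), at unc-15, unc-52, lev-11 and pat-10, beside 5.73% of the same reference set. CACGTG lay at 2 (4.35%, 1.20 to 14.5), at hlh-1 and dys-1, beside 3.09%. CAGCTG lay at 0 of 46, which allows up to 7.71% by the Wilson interval, beside 2.84%. No match says only that these letters are not within 50 bases of the summit.

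The strongest member peak of any kind lay in an intron of unc-22. This gene (WBGene00006759, chrIV:11972697-12011007, minus strand) encodes twitchin, a giant kinase of the thick filament whose loss makes the animals twitch. Its peak chrIV:12009259-12009678 had a signal of 124 at rank 839, with 55.4 in replicate 1 and 70.8 in replicate 2. The summit lay 1411 bp downstream of the nearest annotated 5′ end. The second thresholded peak, chrIV:12010371-12010790, had a signal of 105.1 at rank 1241, with 42.4 and 58.6 in the replicates, and lay 299 bp downstream of that 5′ end, just beyond the 200 bp of the window. It also lay inside the annotated non-coding RNA genes ZK617.11 and ZK617.23. Replicate 2 had the higher signal at both. The sequences are printed as above, with GACGCA in capitals, since they lie under the only thresholded peaks inside a member, and only the run at 299 bp holds that word.
unc-22 at 1411 bp, chrIV:12009419-12009519: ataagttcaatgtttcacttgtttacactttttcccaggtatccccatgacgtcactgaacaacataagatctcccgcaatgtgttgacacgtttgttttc
unc-22 at 299 bp, chrIV:12010531-12010631: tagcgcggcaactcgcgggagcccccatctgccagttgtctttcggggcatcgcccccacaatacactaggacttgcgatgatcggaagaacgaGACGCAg

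Members just short of the threshold were the thin-filament gene unc-60 and the dense-body gene atn-1. The gene unc-60 encodes cofilin-type proteins that sever actin filaments. Its window summit ranked 1738 with a signal of 89.3, with 46.7 in replicate 1 and 41.5 in replicate 2, and lay 367 bp upstream of the 5′ end, in a window shared with F53E2.2. The gene atn-1 encodes alpha-actinin, which crosslinks actin in dense bodies. Its summit ranked 1804 with a signal of 87.8, with 34.1 and 57.2 in the replicates. That summit lay in an intron, 517 bp upstream of an internal 5′ end, and inside the non-coding RNA gene W04D2.9. A further 2 joint summits lay in the windows of atn-1. Both runs follow in the same format, with TCTCTC in capitals, as the nearest peaks outside the threshold.
unc-60, chrV:1474669-1474769: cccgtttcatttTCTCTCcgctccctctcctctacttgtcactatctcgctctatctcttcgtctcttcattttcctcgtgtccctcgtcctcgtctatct
atn-1, chrV:12479263-12479363: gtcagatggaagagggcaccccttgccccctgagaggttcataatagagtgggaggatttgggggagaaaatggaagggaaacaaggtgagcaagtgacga

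**Figure D2:**
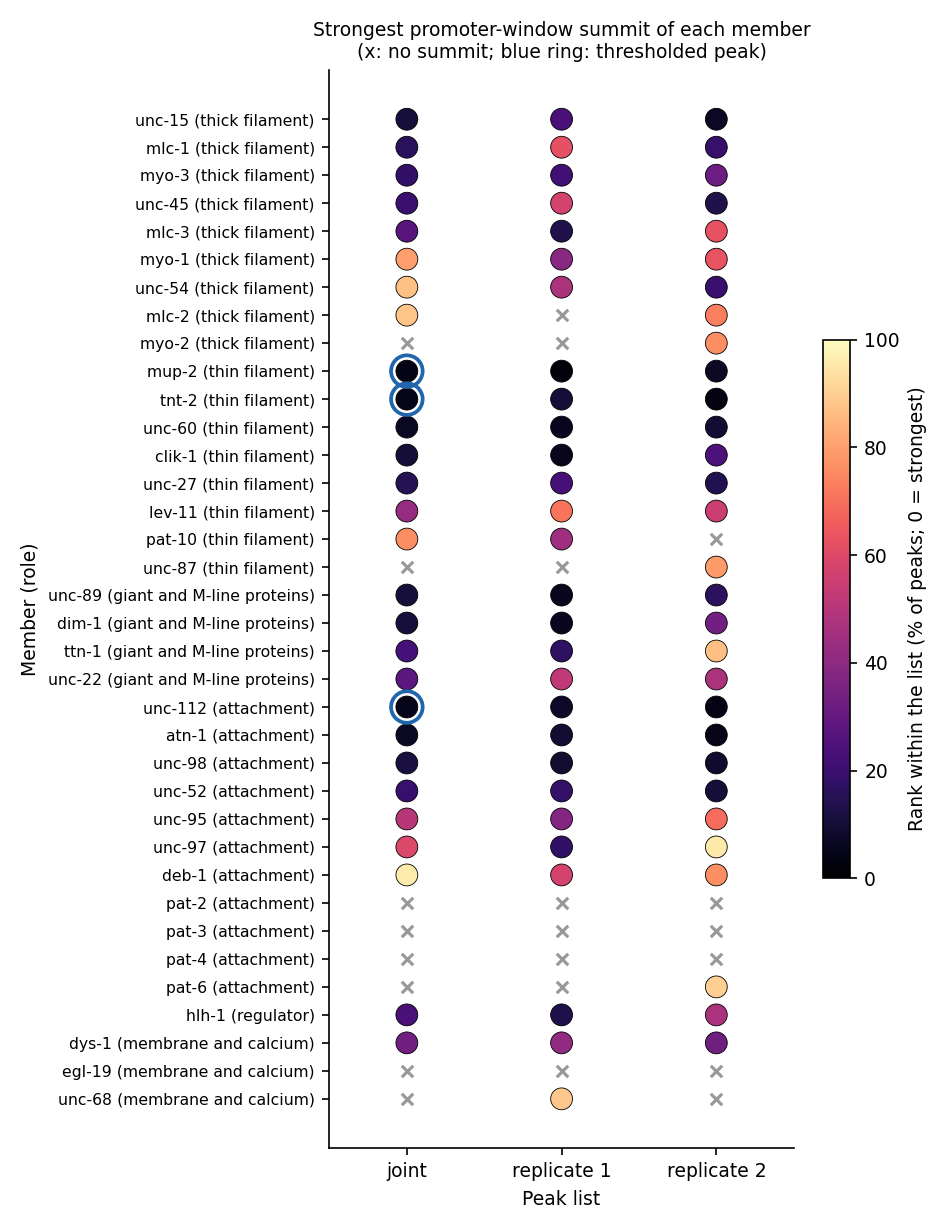
Strongest promoter-window summit of each of the 36 members (rows, with role) in the joint list and in each replicate's list (columns), coloured by its rank as a percentage of the peaks in that list. Crosses are members without a window summit and blue rings mark the 3 with a thresholded peak; egl-19, pat-2, pat-3 and pat-4 have crosses in all 3 columns.

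Among the 9 genes of the thick filament, 8 had a joint summit in the window, beside 35.0% of all genes, and none of these was thresholded. The strongest stood at unc-15, the paramyosin gene, with a signal of 71.5 at rank 2829 and 42 bp upstream of a 5′ end, and with 29.1 in replicate 1 and 48.7 in replicate 2. The myosin light chain gene mlc-1 followed with 60.5 at rank 4233, with 20.2 and 32.3 in the replicates. Then came myo-3, the minor body wall myosin heavy chain, with 57.8 at rank 4770, 371 bp upstream, with 30.1 and 26.9. Replicate 2 was higher at unc-15 and mlc-1, and the replicates lay closer together at myo-3. The myosin chaperone gene unc-45 had 55.4 at rank 5313, 668 bp upstream, and the light chain gene mlc-3 had 49.7 at rank 7111, 9 bp downstream of its 5′ end.

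Other myosin genes were near the floor of the joint list, whose lowest signal was 28.5. The gene unc-54 encodes the major body wall myosin heavy chain. Its joint window summit had a signal of 30.7 at rank 22830, 104 bp upstream, where replicate 2 had a peak of 31.8 and replicate 1 had none, although replicate 1 held another summit 725 bp upstream with a signal of 22.6. The pharyngeal myosin gene myo-1 had 32.1 at rank 20986, in its 5′ UTR, with a replicate 1 peak of 24.3 and none of replicate 2, whose only window summit lay 798 bp upstream with a signal of 20.6. At mlc-2 the signal was 30.6 at rank 23023, with 19.3 in replicate 2 and none in replicate 1. The mlc-2 summit lay inside the non-coding RNA gene C36E6.11. The other pharyngeal myosin gene, myo-2, had no joint summit in its window, and replicate 2 alone held a weak one (18.9, 349 bp upstream).

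In the pharyngeal myosin gene myo-1 the strongest body peak had a higher signal than the joint summit in the promoter window. At myo-2 joint summits lay in the body only. Bodies of 8112 bp at myo-1 and 7288 bp at myo-2 were searched, against a window of 1201 bp each. In myo-2 all 4 joint body summits lay in coding exons, and the strongest had a signal of 75.8 at rank 2472, 6451 bp from the 5′ end, with 31.5 and 41.8 in the replicates. In myo-1 there were 8 body summits, 1 of them the window summit in the 5′ UTR and 4 weaker than it. The strongest lay in a coding exon 4008 bp from the 5′ end with a signal of 72.5 at rank 2733, found in both replicates and higher in replicate 2. In unc-54 there were 4, the strongest with 45.9 at rank 8878. A body summit of unc-15 in a coding exon (72.3, rank 2748, with 47.0 and 31.0 in the replicates) was as strong as its promoter summit.

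Of the 8 genes of the thin filament, 7 had a joint summit in the window, beside 35.0% of all genes. After mup-2, tnt-2 and unc-60 came clik-1, a calponin-like gene, with a signal of 72.5 at rank 2732, 56 bp upstream, and with 49.1 in replicate 1 and 29.8 in replicate 2. The troponin I gene unc-27 had 62.3 at rank 3915, 222 bp upstream and inside the non-coding RNA gene ZK721.6, with 29.4 and 35.7. The tropomyosin gene lev-11 has 11 annotated 5′ ends, the most among the members, and its strongest window summit was at rank 11122 with 42.1. The troponin C gene pat-10, the calcium sensor of the complex, had 32.8 at rank 20012, with a window summit in replicate 1 and none in replicate 2. The calponin-related gene unc-87, which stabilises actin filaments, had no joint window summit. Troponin genes thus spanned the list, from rank 1004 at mup-2 to rank 20012 at pat-10.

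All 4 genes grouped as giant and M-line proteins had a joint summit in the window and in the body, beside 35.0% and 43.0% of all genes. The label does not describe dim-1, which was placed in this group with a body of 7755 bp. Of the 4 genes, unc-22, unc-89 and ttn-1 each have 5 annotated 5′ ends and a body over 20 kb. Among all genes with 5 or more such ends 73.9% had a joint window summit. Among all genes over 20 kb 85.4% had a joint body summit. The gene unc-89 encodes obscurin, a giant M-line protein, and its strongest window summit (72.0, rank 2781, with 48.0 in replicate 1 and 26.3 in replicate 2) lay in an intron, 311 bp upstream of an internal 5′ end. The gene dim-1, which encodes an immunoglobulin-domain protein found around dense bodies, likewise had its strongest window summit (71.2, rank 2858, with 46.8 and 26.4) 557 bp upstream of an internal 5′ end. The dim-1 summit lay inside the non-coding RNA gene C18A11.12. Replicate 1 was higher at both unc-89 and dim-1. The titin-like gene ttn-1 had a summit 9 bp from a 5′ end (53.1, rank 5933, with 32.2 in replicate 1 and none at that place in replicate 2, which held one 452 bp upstream with 17.8). At unc-22 the window summit lay 997 bp upstream (49.1, rank 7354), far weaker than the intron peaks above.

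Of the 11 attachment genes 7 had a joint window summit, beside 35.0% of all genes. The other 4, pat-2, pat-3, pat-4 and pat-6, had none. Each of these has 1 annotated 5′ end, and of all such genes 29.2% had a joint window summit. They encode alpha integrin, beta integrin, the integrin-linked kinase and the actopaxin of the integrin adhesion, where the product of unc-112 also acts. Neither replicate's list held a window summit for pat-2, pat-3 or pat-4, and pat-6 had a weak one in replicate 2 alone (17.4, 127 bp upstream). Within the gene bodies, pat-4 held 2 joint summits (strongest 36.8, rank 15451) and pat-3 held 1 (33.4, rank 19189), each with a peak in replicate 1 only. No joint summit lay in the window or body of pat-2 or pat-6, the only members without any.

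At the bound end of the attachment group were unc-112 and atn-1, followed by unc-98, which encodes a zinc finger protein of M-lines. Its window summit had a signal of 69.7 at rank 2997, 183 bp upstream, with 40.4 in replicate 1 and 44.2 in replicate 2. The perlecan gene unc-52 had 56.1 at rank 5149, 82 bp downstream of an internal 5′ end, with 23.9 and 40.1. The LIM-domain genes unc-95 and unc-97 had 39.4 (rank 13135) and 36.6 (rank 15683), and unc-97 had no replicate 2 peak at that summit but one 808 bp upstream with 16.8. The vinculin gene deb-1 had 29.2 at rank 25164, near the floor, with no peak of either replicate over the summit, although each replicate had a weak one elsewhere in the gene's windows (20.9 in replicate 1 and 18.9 in replicate 2).

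Of the 3 genes of the membrane and of calcium release, 1 had a joint window summit, beside 35.0% of all genes. At dys-1, the dystrophin gene, it lay 451 bp upstream of an internal 5′ end (46.3, rank 8655, with 23.8 and 23.1 in the replicates). This gene has 9 annotated 5′ ends, and among all genes with 5 or more 73.9% had a joint window summit. The L-type calcium channel gene egl-19 had no window summit in any list. The ryanodine receptor gene unc-68 had one in replicate 1 alone (17.0, 375 bp upstream). The muscle regulator gene hlh-1, the worm's MyoD homologue, had its strongest window summit in a coding exon, 37 bp from a 5′ end (52.5, rank 6091), with 35.7 in replicate 1 and no peak there in replicate 2. A second one, 458 bp upstream, had 30.5 with a peak in replicate 2 only.

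In gene bodies, 29 of 36 members held a joint summit (80.6%, 65.0 to 90.2) beside 43.0% of all genes. Replicate 1 gave 32 members beside 48.1% of all genes, and replicate 2 gave 23 beside 43.0%. With the joint summit inside a peak of both replicates the count was 21, beside 21.2%. Since length classes were read after the first results, they are a description. Members are long, with a median body of 6203.5 bp against 2027 bp over all genes, and longer bodies held a summit more often. Among genes of up to 2 kb 3 of 6 members had a joint body summit beside 27.8% of all genes of that length, and among those of 2 to 5 kb 7 of 9 beside 51.0%. Among genes of 5 to 10 kb, 11 of 13 members had one beside 69.1%, and among those over 20 kb 6 of 6 beside 85.4%. Both members of 10 to 20 kb had one, beside 77.9%. In replicate 2 alone the members lay closer to genes of their length or below them, with 0 of 6 beside 27.3% up to 2 kb, 5 of 9 beside 50.9% at 2 to 5 kb and 10 of 13 beside 70.3% at 5 to 10 kb. In replicate 1 the same classes gave 3 of 6 beside 31.7%, 8 of 9 beside 56.9% and 13 of 13 beside 76.4%. Per kb of body there were 0.347 joint summits in members and 0.264 in all genes. For replicate 1 the densities were 0.385 and 0.302 per kb, and for replicate 2 they were 0.314 and 0.260. In the thresholded list members had fewer per kb of body than all genes, 0.00469 against 0.00931, from 2 summits.

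The 6 members longer than 20 kb, ttn-1, unc-89, unc-22, unc-52, dys-1 and unc-68, held 89 of the members' 148 joint body summits. They differed in density. In unc-22 there were 26 summits, or 0.679 per kb, and 18 of them lay in coding exons. In unc-89 there were 25, or 0.453 per kb, with 12 in coding exons and 13 in introns. By contrast ttn-1, the longest member at 81724 bp, held 8, or 0.0979 per kb. The only summits past the threshold were the 2 near the 5′ end of unc-22, and the rest of its body summits stayed at or below 52.9. In unc-52 the strongest lay in an intron with a signal of 80.8 at rank 2146, with 38.7 in replicate 1 and 43.1 in replicate 2.

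**Figure D3:**
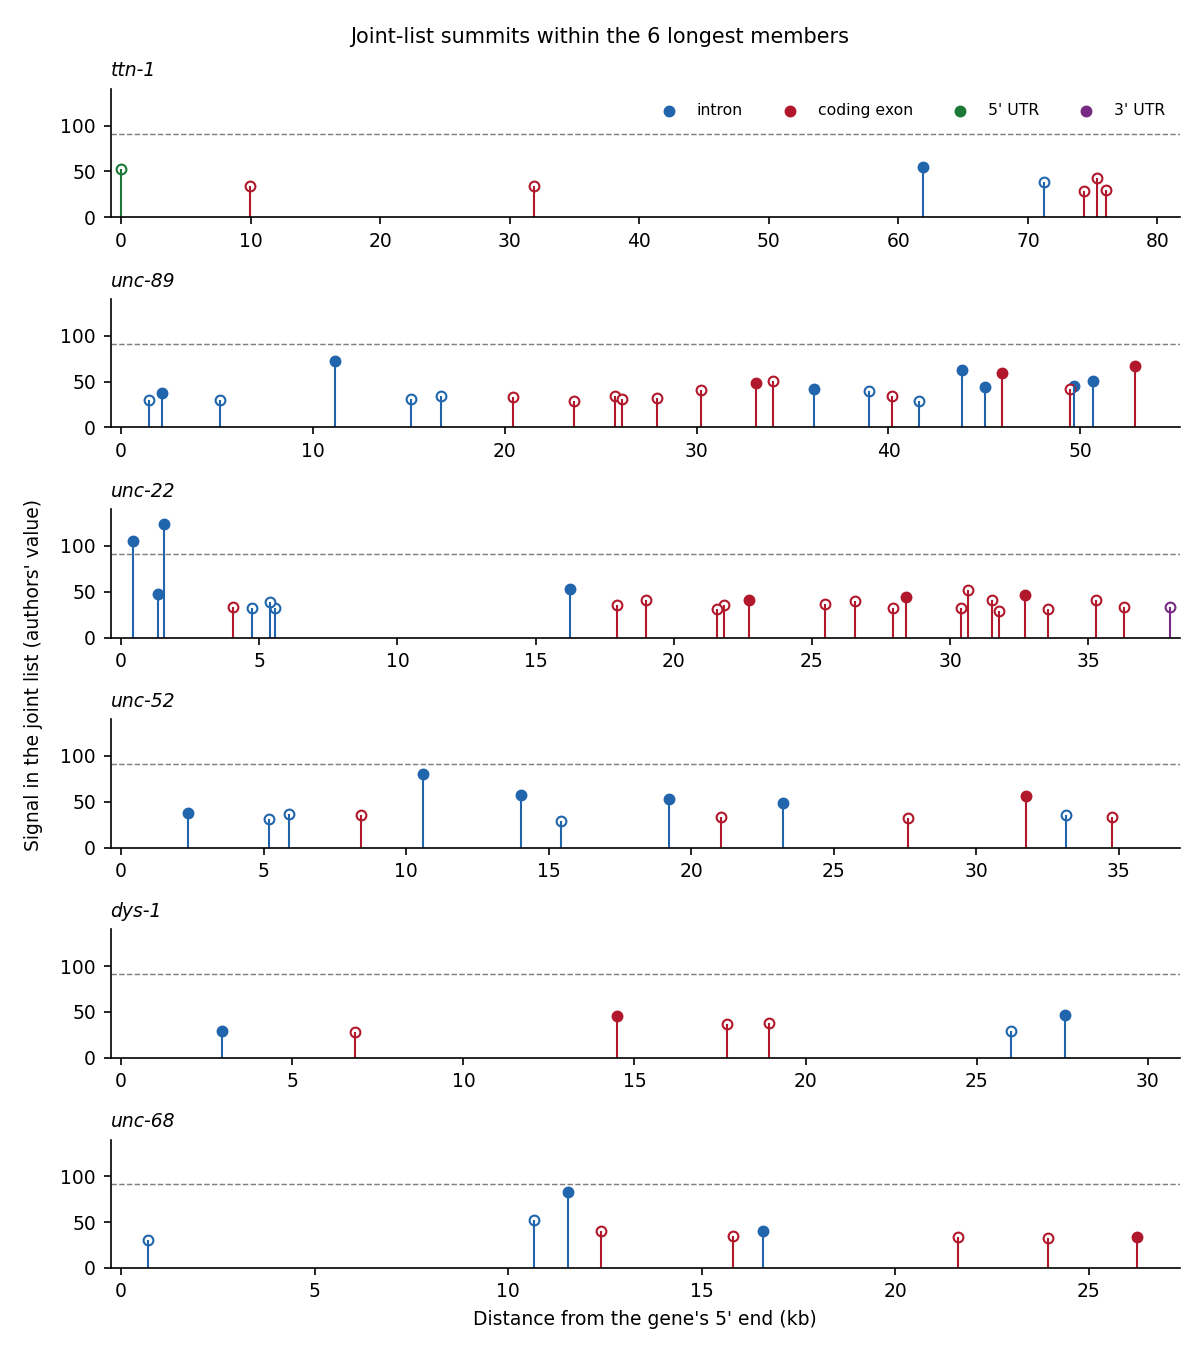
Joint-list summits within the 6 members longer than 20 kb, by distance from the gene's 5′ end (kb) and by the authors' signal; colours give the annotated place, filled points lie in a peak of both replicates, open points do not, and the dashed line is the lowest thresholded signal (91.0). Only the 2 intron summits at the start of unc-22 stand above the line, and unc-22 and unc-89 carry low summits over most of their length.

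The strongest body summit of unc-68 lay on a transfer RNA gene. It had a signal of 82.9 at rank 2034, with 50.8 in replicate 1 and 39.3 in replicate 2, and lay in an intron inside the annotated tRNA gene WBGene00023105 (chrV:6917466-6917550, plus strand). The summit also lay inside the non-coding RNA gene K11C4.11. The run is shown because it holds the start of the tRNA, and it has none of the words searched.
unc-68, chrV:6917429-6917529: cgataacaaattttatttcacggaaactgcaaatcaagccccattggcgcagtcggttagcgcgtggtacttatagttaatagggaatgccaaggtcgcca
In unc-22 a weak summit (38.4) lay inside the intronic tRNA gene WBGene00014625 and the non-coding RNA gene ZK617.10. Another weak unc-22 summit (32.2) lay 175 bp from that tRNA gene. With the unc-68 summit, these were the only members' summits within 500 bp of a tRNA gene, 3 of 175 (1.71%), beside 2.05% of all joint peaks.

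The share of body summits in coding exons was close to the share of coding sequence in members. Coding exons held 73 of 148 joint body summits (49.3%) and made up 49.1% of the members' bodies. Over all genes the values were 42.8% of summits and 38.3% of bodies. Introns held 61 of the members' summits (41.2%) for 46.6% of the sequence. Per kb, members had 0.348 summits in coding exons and 0.307 in introns, beside 0.295 and 0.231 over all genes. These body summits were weak, with a median signal of 37.9 against 38.4 for all genes' body summits, and 36.5% of them lay in a peak of both replicates against 39.8%.

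The median promoter summit of members was stronger than that of all genes, and more of them lay in a peak of both replicates. The 46 joint summits in members' windows had a median signal of 49.4, from 28.6 to 114, against a median of 41.2 for all window summits. Of them, 28 lay in a peak of both replicates (60.9%) against 49.1%. Upstream of the nearest 5′ end lay 34 of the 46 (73.9%), at a median of 410 bp, against 79.9% and 382 bp over all genes. In the window of another protein-coding gene lay 6 (13.0%), against 13.1%.

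The number of annotated 5′ ends sets how much sequence was searched, so shares were also read within genes of like number. Members had a mean of 2.47 annotated 5′ ends and all genes 1.49. Many worm transcripts are trans-spliced, so an annotated 5′ end need not be where transcription starts. Among genes with 1 annotated 5′ end, where every window is 1201 bp, 15 of 20 members had a joint window summit (75.0%) beside 29.2% of all such genes, and 3 of 20 had a thresholded one beside 3.19%. Among genes with 2 or more, 13 of 16 members had a joint summit (81.2%) beside 50.5%, and 0 of 16 a thresholded one beside 7.40%. Over all windows there were 0.592 joint summits per kb for members and 0.322 for all genes, and 0.0386 and 0.0317 thresholded ones. Of the 9 members on X, 8 had a joint window summit beside 42.7% of all genes on X, and of the 27 on autosomes 20 had one (74.1%) beside 33.8%.

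The replicates gave like pictures of the members' promoters with different strengths at single peaks. Besides the 26 members with a window summit in both lists, 2 had one in replicate 1 only (pat-10 and unc-68) and 4 in replicate 2 only (myo-2, unc-87, mlc-2 and pat-6). Of all genes, 22.8% had one in both lists, 15.1% in replicate 1 only and 12.1% in replicate 2 only. Neither list had one for egl-19, pat-2, pat-3 or pat-4, which is 4 of 36 members beside 9983 of 19973 genes in all. Of the 175 joint summits in members' windows or bodies, 71 lay in a peak of both replicates, beside 43.8% of all joint peaks. Another 10 lay in a peak of neither. Replicate 1 had the higher signal at 34 of those 71, and at 48.6% of all joint peaks found in both. No normalisation between the replicates' signals is stated, so their sizes are only set side by side. Whether the replicates differ in depth is not known here.

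**Figure D4:**
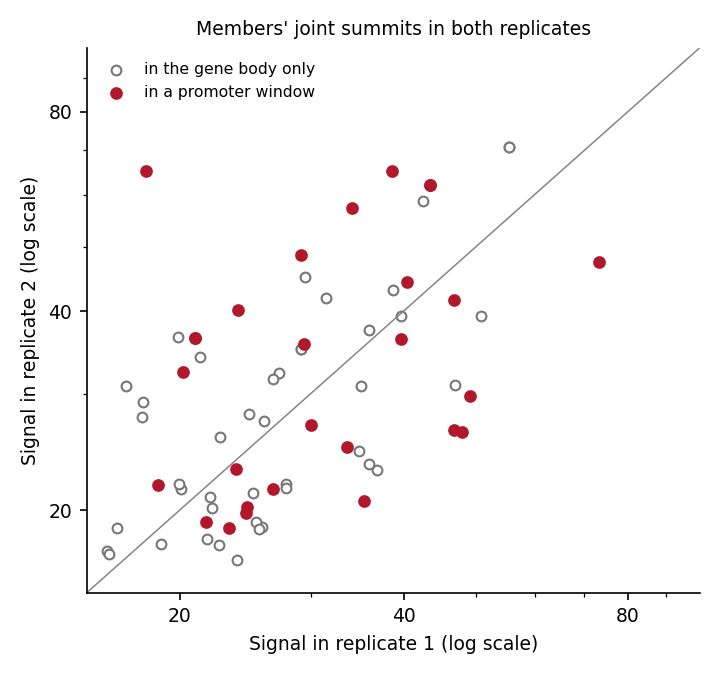
Signal in replicate 1 (x axis) and replicate 2 (y axis), both on log scales, at the 71 joint summits of members that lie in a peak of both replicates; red points lie in a promoter window, open points in the gene body only, and the line marks equal values. Points lie on both sides of the line, 34 of the 71 with the higher signal in replicate 1.

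A wider list of 79 genes, here called other muscle genes, was counted in the same way. It covers actins, further troponins, basement membrane, the dystrophin complex, receptors of the neuromuscular junction and muscle regulators, among others. The list also holds genes of epidermal attachment, such as let-805 and mup-4, so its shares are not of muscle alone. A joint window summit was present for 50 (63.3%, 52.3 to 73.1), beside 35.0% of all genes, and a summit in both replicates' lists for 38 (48.1%, 37.4 to 58.9), beside 22.8%. These shares were not matched for the number of annotated 5′ ends. Over all genes the joint window share was 29.2% with 1 such end and 73.9% with 5 or more. A thresholded window summit was present for 5 of the 79 genes (6.33%, 2.73 to 14.0), beside 4.34% of all genes, which lies inside that interval. These were unc-23, sca-1, cap-2, act-4 and scpl-1. The strongest stood at unc-23, a co-chaperone gene of the BAG family (signal 178, rank 350, with 77.0 in replicate 1 and 102 in replicate 2), 55 bp upstream of a 5′ end. The calcium pump gene sca-1 had 131, with 80.5 and 48.2. The actin gene act-4 carried a pair of summits of signal 115 each, 445 bp upstream and 130 bp downstream of its annotated 5′ ends. Its near-identical actin copies can share reads, and no source used here says how such reads were placed. The capping protein gene cap-2 had 116 in a window shared with gmps-1, and scpl-1 had 92.9.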

How the data were processed

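The 4 peak lists used, in narrowPeak format on ce11, were made by the authors: 1 from each replicate's alignment, 1 from both alignments together and 1 by IDR thresholding of those. Each of the first 3 also drew on 1 further input file, whose kind the accompanying text files do not state, and the labels name a possible control experiment. No source used here names the peak caller, aligner, settings or read depth, so no depth per sample can be given. Per peak, the authors give a signal value with no unit, and peaks were ranked and described by it inside their own list. The −log10 q-value was deposited by the authors and not used. Summits are the peak start plus the authors' offset.

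Genes came from Ensembl release 115 (WBcel235) and sequences from the RefSeq copy of that assembly, inside whose chromosome lengths all peaks ended. Counts were made in Python 3.11.15 with numpy 2.4.6 and pandas 2.3.3, intervals (Wilson, 95%) with scipy 1.17.1 and figures with matplotlib 3.10.9. The window search was tested on simulated data. A replicate's signal at a joint summit is that of its strongest peak over that summit, so neighbouring summits can share it. The members and lists were chosen with earlier results of these data known, and no test of them was made. Every member with a thresholded summit was to be named, with the members of highest joint rank, those without any summit, and other muscle genes with a thresholded window summit. The remaining members were added after their values were seen, so that all are accounted for, as were the word GAGAGA, the rank cuts, the X and length classes and the search for non-coding genes. Windows, assignment, overlap, threshold, merging and replicates were varied.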

Additional observations from a re-analysis of the deposited data

How the results depend on the processing

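Of 10 alternatives for members with a thresholded window summit, 9 gave 2 to 4 members, beside 2.73% to 6.14% of all genes. The stronger 50% of the list gave 0, beside 2.35%, by construction with fewer peaks. For the thresholded gene body, where 1 member counted, any base of the peak gave 2, beside 3.85% of all genes. There the stronger 50% of the list gave 0, beside 1.15%. Keeping only thresholded summits inside a peak of replicate 1, or only those inside a peak of replicate 2, left these counts at 3 and 1. Over all genes the shares were then 4.33% for the window and 2.32% to 2.33% for the body. No list was called again without a replicate, and the thresholded list was made from both. The unchanged counts therefore do not show what a single replicate would give. For the joint list window, 11 of 13 alternatives gave 20 to 32 members, within 1.5 times of the main count, beside 18.9% to 51.2% of all genes. All 6 for the body gave 21 to 30, beside 21.2% to 49.7%. The lowest of these, 20 and 21, came from asking for a peak of both replicates, a setting added after the data were seen. Outside that range lay rank cuts, also chosen after the data were seen. The strongest 10% of the joint list gave 5 members (6.43% of all genes) and the strongest 25% gave 17 (12.9%), again with fewer peaks by construction. With only the outermost 5′ end of each gene, 24 members had a joint window summit, beside 31.7% of all genes, and with the nearest 5′ end only 27, beside 29.8%. With only joint summits inside a peak of replicate 2 the window count was 23 (26.1% of all genes). With only those inside a peak of replicate 1 it was 25 (27.2%). For the body the same 2 filters gave 22 (31.1%) and 28 (33.8%). Members with a window summit in both replicates' lists ran from 18 with the narrow window (500 bp upstream to 100 bp downstream), beside 13.4% of all genes, to 30 with the wide one (2000 to 500 bp), beside 38.1%. No paired analysis was possible because there is only 1 group. With 36 members, 1 member is 2.78%, and read depth is not known here, so a missing summit does not show that binding is absent.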
